A study of Mus musculus with 24 samples.

Results

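The genes described here encode the isoenzymes of glycolysis and gluconeogenesis with their glucose transporters, 29 of the 21370 genes that could be named on the array. They were chosen by name, as a list of the glycolytic enzymes with their tissue isoforms, 4 glucose transporters and the enzymes that turn pyruvate back into glucose. All 29 were measured, each by its probe of highest mean level, and 23 of them were well above background on all 24 arrays.

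Glycolysis breaks glucose down to pyruvate in the cytosol of every cell, and lactate dehydrogenase converts pyruvate to lactate and back. Most steps are catalysed by several isoenzymes from separate genes, and the tissues of a mammal are known to use different ones. Gluconeogenesis runs mainly in the liver and kidney, shares the reversible steps of glycolysis and bypasses the irreversible ones through pyruvate carboxylase, phosphoenolpyruvate carboxykinase, fructose bisphosphatase and glucose-6-phosphatase.

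RNA of skeletal muscle, heart, liver and brain from 6 female mice was profiled on 1-colour Agilent arrays. In 3 mice both alleles of Rap1, the gene of a shelterin protein that binds telomeres through TRF2, carried the I312R knockin (KI) mutation made with CRISPR/Cas9 to release the protein from telomeres, and 3 mice were wild type (WT). The knockin line was backcrossed 4 times to a C57BL/6N background, per the study's methods, and every cell of the animal carried the mutation. By animal number, A, B and C name the KI mice, and D, E and F the WT mice, with KI mouse C and WT mouse F aged 14 months and the other 4 mice 15 months. Every mouse gave all 4 tissues, so the 24 arrays formed 8 groups of 3.

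Levels are processed signals on a log2 scale after subtraction of each array's 75th percentile, so that a level of 0 equals that percentile and a difference of 1 is a doubling of signal. Each probe was compared only with itself, because probes differ in brightness. The 75th percentile corresponded to a signal of 269 to 512 in muscle, 468 to 1136 in liver, 740.5 to 972 in heart and 1232.5 to 2198 in brain. Differences between tissues therefore also depend on the percentile that was subtracted. On the arrays 49.4% to 68.4% of probes were well above background. Tissue labels were checked against marker genes. The mean of 7 hepatocyte genes was 7.78 to 8.48 in liver and at most 3.34 elsewhere, that of 7 neuron genes 5.31 to 5.61 in brain and at most -2.02 elsewhere, that of 6 cardiomyocyte genes 6.35 to 8.46 in heart and at most -2.31 elsewhere, and that of 8 fast fibre genes 9.29 to 9.69 in muscle and at most 1.43 elsewhere. 4 arrays stood apart. The brain of KI mouse C carried hepatocyte transcripts, the liver of KI mouse C fast fibre transcripts and the muscle of KI mouse B mammary transcripts, and the heart of KI mouse B had atrial and fat transcripts above the other hearts. Counts by tissue, and several genotype differences that these arrays moved, are given with and without them.

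The isoenzyme genes differed between tissues far more than between mice. Across the 29 genes, the median range between the highest and the lowest tissue mean was 6.47 (log2), against 2.39 over all 16864 genes tested, whereas the median SD within a group of 3 was 0.314, against 0.302. A gene was called different between a pair of tissues at a limma adjusted p under 0.05 and a difference of at least 1. By this rule 19 of the 29 differed between liver and brain, where 62.1% of all genes did. The counts were 24 between liver and heart (49.3% of all genes), 24 between liver and muscle (53.8%), 18 between brain and heart (53.6%), 25 between brain and muscle (58.8%) and 19 between heart and muscle (31.5%). These are 129 of 174 comparisons.

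Called higher in 1 tissue than in each of the other 3 were 21 of the 29 genes, against 41.8% of all genes. Liver was highest for 6 of them (Pklr, Slc2a2, G6pc, Pck1, Fbp1 and Pcx), with 14.9% of all genes. Brain was highest for 5 (Pfkp, Aldoc, Eno2, Slc2a1 and Slc2a3), with 16.2% of all genes. Heart was highest for 1 (Ldhb, and 0 with quantile normalization), with 4.47% of all genes. Muscle was highest for 9 (Gpi1, Pfkm, Aldoa, Tpi1, Pgam2, Eno3, Pkm, Ldha and Fbp2, of which 3 with quantile normalization), with 6.26% of all genes. No single tissue was highest for Hk1, Hk2, Pfkl, Gapdh, Pgk1, Pgam1, Eno1 and Slc2a4.

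The liver and brain sets held under every scaling tried, and the muscle and heart sets did not. With quantile normalization 15 genes had 1 highest tissue, 6 in liver, 6 in brain (Pgam1 was added), 3 in muscle (Pfkm, Pgam2 and Fbp2) and 0 in heart. Called with the 75th percentile scaling, 3 of the 129 differences then changed sign. Gapdh went from 1.01 to -0.51 for liver minus brain and from -1.88 to 0.24 for brain minus muscle, and Aldoa went from -1.11 to 0.03 for brain minus heart. The median of all genes lay at -0.27 for brain minus muscle with the percentile scaling and at 0.05 with quantile normalization. Each difference below is relative to the 75th percentile, and the cause of the change with scaling was not tested. All 129 calls were also made without the brain and liver of KI mouse C and the muscle of KI mouse B.

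**Figure D1:**
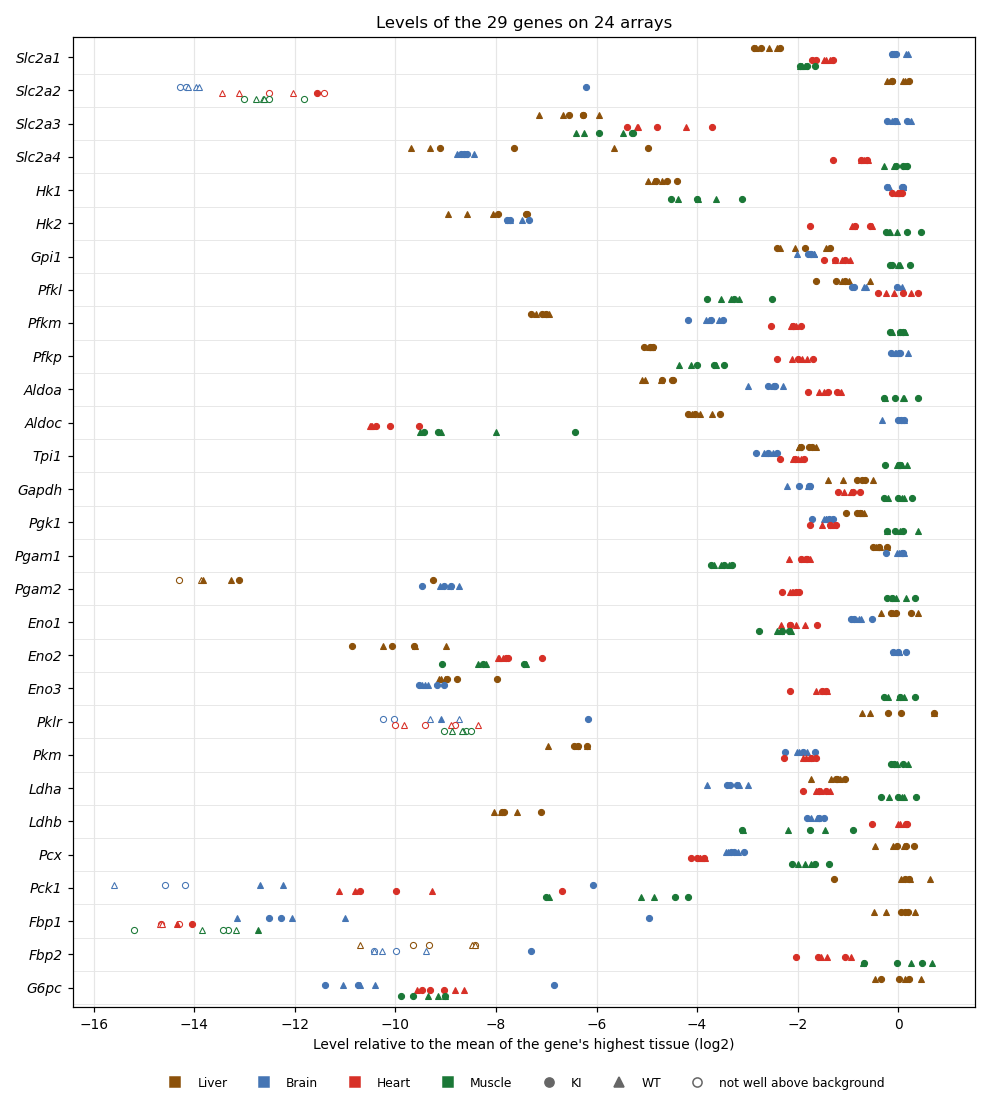
Level of each of the 29 genes on the 24 arrays relative to the mean of its highest tissue (horizontal axis, log2), coloured by tissue, with circles for KI, triangles for WT and open symbols for probes not well above background. Isoforms such as Eno2, Eno3, Pgam2, Aldoc and Fbp1 span 9.33 to 14.45 between tissue means, and Gapdh and Pgk1 span 1.88 and 1.45. The lowest means of Fbp1 (heart) and Pgam2 (liver) include arrays not well above background, so the spans of these genes are not exact. The open brain points of Slc2a2 lie far below the single filled point of KI mouse C.

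Of the glucose transporters, Slc2a2 was highest in liver, Slc2a1 and Slc2a3 were highest in brain, and Slc2a4 had no single highest tissue. Slc2a2 (GLUT2), the transporter of hepatocytes and pancreatic beta cells, was lowest at 6.11, median 6.32 and highest at 6.54 in the 6 livers. None of the 6 muscle arrays measured it above background, which puts liver at least 1550-fold higher. Heart and brain had 1 measurable array each, and the brain array was that of KI mouse C, at 0.11 against -7.95 to -7.58 in the other 5. Slc2a1 (GLUT1), the transporter of the blood-brain barrier and of red cells, was at 3.90 to 4.21 in brain and exceeded heart by 1.49 ± 0.105 (SE, log2, adjusted p = 1.4e-10, limma) and muscle by 1.86. Slc2a3 (GLUT3), the neuronal transporter, was at 3.32 to 3.81 in brain, 4.75 ± 0.267 above heart (adjusted p = 4.87e-12, limma). The ranges of Slc2a1 and Slc2a3 in brain did not overlap with those in any other tissue. Slc2a4 (GLUT4), the transporter that insulin moves to the membrane of muscle and fat cells, averaged 7.79 ± 0.169 (SD, n = 6) in muscle and 7.01 ± 0.257 in heart. The ranges in these tissues, 7.51 to 7.96 and 6.50 to 7.19, did not overlap. Their difference of 0.78 ± 0.595 (SE) was under the limit of 1 and did not pass the test (adjusted p = 0.261, limma). That SE pools the spread of all 4 tissues, so the wide spread of the livers enters it. In brain Slc2a4 averaged -0.83 ± 0.119, 8.63 below muscle, and in liver it spread from -1.90 to 2.82, an SD of 2.01.

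Hexokinases trap glucose in the cell as glucose-6-phosphate. Hk1, the form of brain and red cells, was at 5.74 to 6.06 in brain and 5.84 to 6.05 in heart, a difference of -0.01 ± 0.178 (SE, log2) that was 0.83 with quantile normalization. Hk1 was lower in muscle (1.44 to 2.86) and liver (1.00 to 1.56). A second Hk1 probe had brain and not heart as its highest tissue. Hk2, the insulin-regulated form of muscle and fat, reached 5.77 to 6.46 in muscle and 4.25 to 5.48 in heart, and lay between -2.95 and -1.33 in liver and brain. Muscle exceeded heart by 0.91 ± 0.195 (adjusted p = 0.000463, limma), under the difference of 1 set for a call. Without the 4 arrays of KI mouse C, Hk2 also passed that limit.

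Gpi1, which turns glucose-6-phosphate into fructose-6-phosphate, was lowest at 8.50, median 8.67 and highest at 8.91 in muscle. Heart followed at 7.19 to 7.71, then brain at 6.65 to 6.99 and liver at 6.26 to 7.31. Muscle exceeded heart by 1.19 ± 0.164 (SE, log2, adjusted p = 4.53e-06, limma), with no overlap, and all 3 probes of the gene had this order. With quantile normalization the muscle minus heart difference was under 1 and brain equalled muscle within 0.04.

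Phosphofructokinase commits sugar to glycolysis, and its 3 subunits are encoded by separate genes. Pfkm, the muscle subunit, was lowest at 9.27, median 9.46 and highest at 9.56 in muscle, 6.89 to 7.49 in heart, 5.25 to 5.94 in brain and 2.12 to 2.48 in liver. No ranges overlapped, and all 6 comparisons between tissues were called, with muscle 2.14 ± 0.12 above heart (SE, log2, adjusted p = 2.42e-11, limma) and 137-fold above liver. Pfkp, the platelet subunit, ran from 2.75 to 3.08 in brain down to -2.18 to -1.99 in liver, with all 6 comparisons called. Pfkl, the liver subunit, was not highest in liver. It averaged 2.74 ± 0.304 (SD, n = 6) in heart, 2.23 ± 0.431 in brain and 1.64 ± 0.35 in liver, and was called lower in muscle, at -0.52 ± 0.433, than in the other 3 tissues. Liver was the lowest tissue for Pfkm and Pfkp.

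Aldolase cleaves the doubly phosphorylated sugar. Aldoa, the muscle form, was at 10.39 to 11.08 in muscle and 5.59 to 6.20 in liver, 26.9-fold lower. Aldoc, the brain form, was lowest at 7.55, median 7.91 and highest at 7.99 in brain, against 3.69 to 4.33 in liver. Brain exceeded liver by 3.92 ± 0.374 (SE, log2, adjusted p = 9.32e-09, limma), muscle by 8.61 and heart by 10.25, or 1220-fold. All 6 comparisons of either gene were called. The muscle levels of Aldoc spread from -1.65 to 1.44, with the highest in KI mouse B.

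The next 3 enzymes have 1 widely used gene each, and tissue means of these genes ranged over 1.45 to 2.60. Tpi1, which interconverts the triose phosphates, was lowest at 8.63, median 8.93 and highest at 9.07 in muscle, 1.83 ± 0.103 above liver (SE, log2, adjusted p = 4.43e-12, limma). Gapdh, the dehydrogenase often used as a reference gene, averaged 9.95 ± 0.207 (SD, n = 6) in muscle, 9.08 ± 0.322 in liver, 8.98 ± 0.153 in heart and 8.07 ± 0.181 in brain. Its muscle minus brain difference of 1.88 is 3.68-fold, while with quantile normalization brain was 0.24 above muscle. Every one of its 7 probes had muscle as the highest tissue. Pgk1, the first ATP-yielding kinase, averaged 7.49 ± 0.233 in muscle and 6.04 to 6.70 in the other tissues, and with quantile normalization brain and muscle differed by 0.03.

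The phosphoglycerate mutases exchanged places between tissues. Pgam1, the brain form, was at 6.31 to 6.67 in brain and 6.07 to 6.34 in liver, and was called lower in muscle (2.83 to 3.26) than in each other tissue. Pgam2, the muscle form, was lowest at 8.85, median 9.0 and highest at 9.40 in muscle. It fell to 6.76 to 7.10 in heart and -0.41 to 0.34 in brain, and in liver only 4 of 6 arrays measured it. Muscle exceeded heart by 2.12 ± 0.521 (SE, log2, adjusted p = 0.00163, limma) and brain by 9.03, or 522-fold. The liver values ran from -5.24 to -4.05 on 5 arrays and stood at -0.19 in KI mouse C, whose liver carried fast fibre transcripts. The promoters of these 2 genes are shown because their products catalyse the same step in different tissues. They run 5′ to 3′ from 250 bases before to 50 after the transcription start in RefSeq on GRCm38.p6, at chr19:41911621-41911920, plus strand for Pgam1 and chr11:5803747-5804046, minus strand for Pgam2. Capitals mark CCGCCC or its reverse complement in Pgam1, a GC box, and CAGCTG in Pgam2, an E-box of the kind bound by myogenic factors.
Pgam1: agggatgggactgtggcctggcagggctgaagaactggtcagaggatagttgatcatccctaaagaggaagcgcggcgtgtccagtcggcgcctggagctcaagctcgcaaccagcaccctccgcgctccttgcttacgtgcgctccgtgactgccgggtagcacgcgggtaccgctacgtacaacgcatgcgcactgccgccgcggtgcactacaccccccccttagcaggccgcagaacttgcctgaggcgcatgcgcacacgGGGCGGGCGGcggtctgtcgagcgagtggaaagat
Pgam2: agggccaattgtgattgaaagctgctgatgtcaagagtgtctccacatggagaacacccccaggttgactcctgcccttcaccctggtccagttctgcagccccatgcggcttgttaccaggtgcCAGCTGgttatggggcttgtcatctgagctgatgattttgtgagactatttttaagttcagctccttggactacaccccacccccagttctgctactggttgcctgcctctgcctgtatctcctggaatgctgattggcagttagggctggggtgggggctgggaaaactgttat
The Pgam1 window holds 2 overlapping GC boxes 15 and 19 bases after the start and no CAGCTG. The Pgam2 window holds 1 CAGCTG 125 bases before the start and no CCGCCC.

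Of the 3 enolase genes, Eno2 was highest in brain and Eno3 in muscle (Eno3 not with quantile normalization), and Eno1 had no single highest tissue. Eno2, the neuronal form, was lowest at 6.34, median 6.44 and highest at 6.60 in brain, and the nearest other tissue, heart, lay at -1.52 to -0.64. The brain minus heart difference was 7.73 ± 0.269 (SE, log2, adjusted p = 4.66e-15, limma), a 213-fold difference, and liver was 958-fold below brain. Eno3, the muscle form, was at 9.55 to 10.17 in muscle and 7.68 to 8.42 in heart, against 0.71 to 1.86 in liver and 0.31 to 0.80 in brain. Muscle was 644-fold above brain and 3.05-fold above heart, with the second difference at 0.77 (log2) after quantile normalization. Eno1, the general form, ran the other way, from 7.34 to 8.09 in liver and 6.76 to 7.18 in brain down to 4.93 to 5.55 in muscle. Its liver minus muscle difference was 2.35 ± 0.148.

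Pyruvate kinase makes pyruvate and ATP. Pklr, the liver and red cell form that fructose-1,6-bisphosphate activates, was lowest at 1.89, median 2.55 and highest at 3.33 in liver. No heart or muscle array measured it above background, which puts liver at least 224-fold above heart and at least 119-fold above muscle, and 2 of 6 brain arrays measured it. Pkm averaged 7.72 ± 0.127 (SD, n = 6) in muscle, 5.87 ± 0.225 in heart, 5.79 ± 0.203 in brain and 1.29 ± 0.278 in liver. The difference between brain and heart did not pass the test (adjusted p = 0.601, limma), and liver was 85.8-fold below muscle. Which of the M1 and M2 transcripts the probe detects was not analysed here.

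Lactate dehydrogenase is a tetramer of Ldha and Ldhb subunits, of which the muscle form favours lactate production and the heart form its oxidation. Ldhb was lowest at 7.86, median 8.47 and highest at 8.56 in heart. Brain followed at 6.57 to 6.90, muscle at 5.27 to 7.48 and liver at 0.33 to 1.27. Heart exceeded brain by 1.63 ± 0.297 (SE, log2, adjusted p = 5.64e-05, limma), a difference of 0.56 (adjusted p = 0.081) with quantile normalization, and was 212-fold above liver. Brain and muscle overlapped, and their difference did not pass the test (adjusted p = 0.167). Ldha was at 9.41 to 10.09 in muscle, 8.0 to 8.69 in liver, 7.84 to 8.38 in heart and 5.94 to 6.76 in brain, so liver held high Ldha beside its lowest Ldhb. Its 3 probes gave 1 order of tissues. The promoter of Ldha (RefSeq, GRCm38.p6, chr7:46845554-46845853, plus strand) is shown for its repeated ACGTG core, the letters of the hypoxia response element, marked in capitals on either strand.
Ldha: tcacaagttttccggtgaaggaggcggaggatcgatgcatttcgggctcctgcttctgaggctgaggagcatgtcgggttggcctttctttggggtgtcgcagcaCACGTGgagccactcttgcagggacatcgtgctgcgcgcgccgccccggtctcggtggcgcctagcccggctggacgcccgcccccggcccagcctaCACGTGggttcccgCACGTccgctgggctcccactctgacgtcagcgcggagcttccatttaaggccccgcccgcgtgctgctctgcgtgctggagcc
It holds 5 matches to ACGTG at 3 places, from 145 to 34 bases before the start, of which 2 places are CACGTG. Of all 32841 promoters in the table, 19.6% hold ACGTG and 7.15% CACGTG.

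Of the enzymes of gluconeogenesis, G6pc, Pck1, Fbp1 and Pcx were highest in liver and Fbp2 in muscle. G6pc, the catalytic subunit of glucose-6-phosphatase, was lowest at 5.65, median 6.19 and highest at 6.57 in liver, 9.14 ± 0.508 above heart (SE, log2, adjusted p = 4.25e-12, limma). Pck1, the cytosolic phosphoenolpyruvate carboxykinase, was at 6.65 to 8.55 in liver and 0.92 to 3.74 in muscle, a difference of 5.42 ± 1.16 (adjusted p = 0.000295). Fbp1, the liver fructose bisphosphatase, was at 8.72 to 9.52 in liver. Its brain level ran from -3.95 to -1.80 on 5 arrays and stood at 4.24 in KI mouse C, and only 2 heart arrays and 1 muscle array measured it. Fbp2, the muscle form, was at 2.02 to 3.39 in muscle and 0.69 to 1.78 in heart, and no liver array measured it above background. Muscle was at least 188-fold and heart at least 69.8-fold above liver. The muscle minus heart difference of 1.43 ± 0.487 (adjusted p = 0.0155) was no longer called with WT arrays alone or without KI mouse B. Pcx, pyruvate carboxylase, which also feeds the citric acid cycle, was at 6.65 to 7.42 in liver and 4.99 to 5.73 in muscle, and was measured on all arrays in every tissue.

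G6pc and Pck1 encode the enzymes through which fasting and glucagon are best known to raise glucose output, and their promoters are shown for the sequences that this regulation is known to use. They are given on GRCm38.p6 as above, at chr11:101367466-101367765, plus strand for G6pc and chr2:173152823-173153122, plus strand for Pck1. Capitals mark GTTAAT or its reverse complement, the core of the HNF1 site, in both, and TTACGTCA, the cyclic AMP response element known from this gene, in Pck1.
G6pc: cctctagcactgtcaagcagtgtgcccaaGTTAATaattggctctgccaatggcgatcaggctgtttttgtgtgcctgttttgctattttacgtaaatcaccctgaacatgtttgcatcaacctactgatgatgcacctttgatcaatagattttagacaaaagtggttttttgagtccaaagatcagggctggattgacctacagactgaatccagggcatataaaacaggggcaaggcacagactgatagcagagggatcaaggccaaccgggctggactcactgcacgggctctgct
Pck1: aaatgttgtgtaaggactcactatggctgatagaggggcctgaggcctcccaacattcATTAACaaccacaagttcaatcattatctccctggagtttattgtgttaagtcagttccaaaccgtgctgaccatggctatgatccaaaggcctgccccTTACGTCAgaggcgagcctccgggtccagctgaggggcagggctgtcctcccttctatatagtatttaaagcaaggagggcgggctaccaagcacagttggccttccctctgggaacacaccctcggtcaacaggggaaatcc
GTTAAT lay 221 bases before the start of G6pc and 192 before that of Pck1, and TTACGTCA 93 bases before that of Pck1. They were the 2 members with GTTAAT, which 5.0% of the member promoters and 7.1% of all promoters hold. TTACGTCA is in 2.5% of the member promoters, that of Pck1 alone, and in 0.499% of all promoters.

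Promoters were in the RefSeq table for 27 of the 29 genes, with 40 starts in all and several starts for 9 of the genes. ACGTG was found in 15 of the 40 (37.5%), against 19.6% of all promoters, in the windows of Hk1, Hk2, Pfkm, Aldoa, Aldoc, Gapdh, Pgk1, Pgam1, Pkm, Ldha, Slc2a1, Fbp2 and Pcx. CAGCTG was in 10 (25.0%, against 16.3%), among them Pgam2, Eno3, Gpi1, Aldoa, Pkm and Fbp2 of the genes highest in muscle, but also Slc2a2, Pck1 and Pcx of those highest in liver. CCGCCC was in 18 (45.0%, against 35.7%), and TGACGTCA in 1, that of Ldha (2.5%, against 1.79%). The exact letters CTAAAAATA, 1 form of the MEF2 site, and CAAAGTCCA, 1 form of the HNF4 site, were in 0 of the 40. They are in 0.518% and 0.475% of all promoters. Other forms of either site were not searched, so these counts do not show that such sites are absent. The median GC content was 57.2% for the 40, against 52.7% for all, and reached 64.2% for the genes with no single highest tissue. Both strands were searched, ACGTG lies within CACGTG, and starts of 1 gene can overlap, so these are counts of letters in a window of 300 bases and not of sites in use.

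Whether the Rap1 mutation altered the isoenzyme genes was asked in each tissue with 3 KI against 3 WT mice. No member was called in any tissue at an adjusted p under 0.05 by limma, and no other named gene was. In liver 0 of 27 members tested were called (0% of 14092 genes), and 2 had an unadjusted p under 0.05, against 11.7% of all genes. For muscle it was 0 of 26 called (0% of 13517 genes) and 0 at the unadjusted level (0.829% of all genes), for heart 0 of 26 (0% of 14931 genes) and 0 (1.6%), and for brain 0 of 25 (0% of 16073 genes) and 0 (0.79%). Averaging each mouse over its 4 tissues gave 0 of 29 (0% of 17177 genes) and 0 at the unadjusted level (3.52%). A test of whether the genotype difference varied between tissues gave 0 of 29 (0% of 17299 genes) and 1 at the unadjusted level (1.85%), Hk2 (adjusted p = 1, limma F-test). In the 12 pairs of a gene and a tissue that were not tested, no genotype had a probe well above background on all 3 arrays. With 3 mice against 3, an exact permutation test of a single gene cannot give a two-sided p below 0.1.

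KI minus WT differences of the members centred on 0. Their median was 0.03 in muscle (0.03 over all genes tested), -0.08 in heart (-0.05), 0.01 in brain (-0.02) and 0.08 in liver (0.05). Genotypes did not overlap for 0 of 26 members in muscle (3.61% of all genes), 2 of 26 in heart (4.82%), 0 of 25 in brain (2.82%) and 4 of 27 in liver (19.8%). The 4 in liver were Hk2, Aldoa and Eno3, higher in KI, and Pgk1, lower in KI. The 2 in heart were Aldoc and Eno2, both higher in KI.

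**Figure D2:**
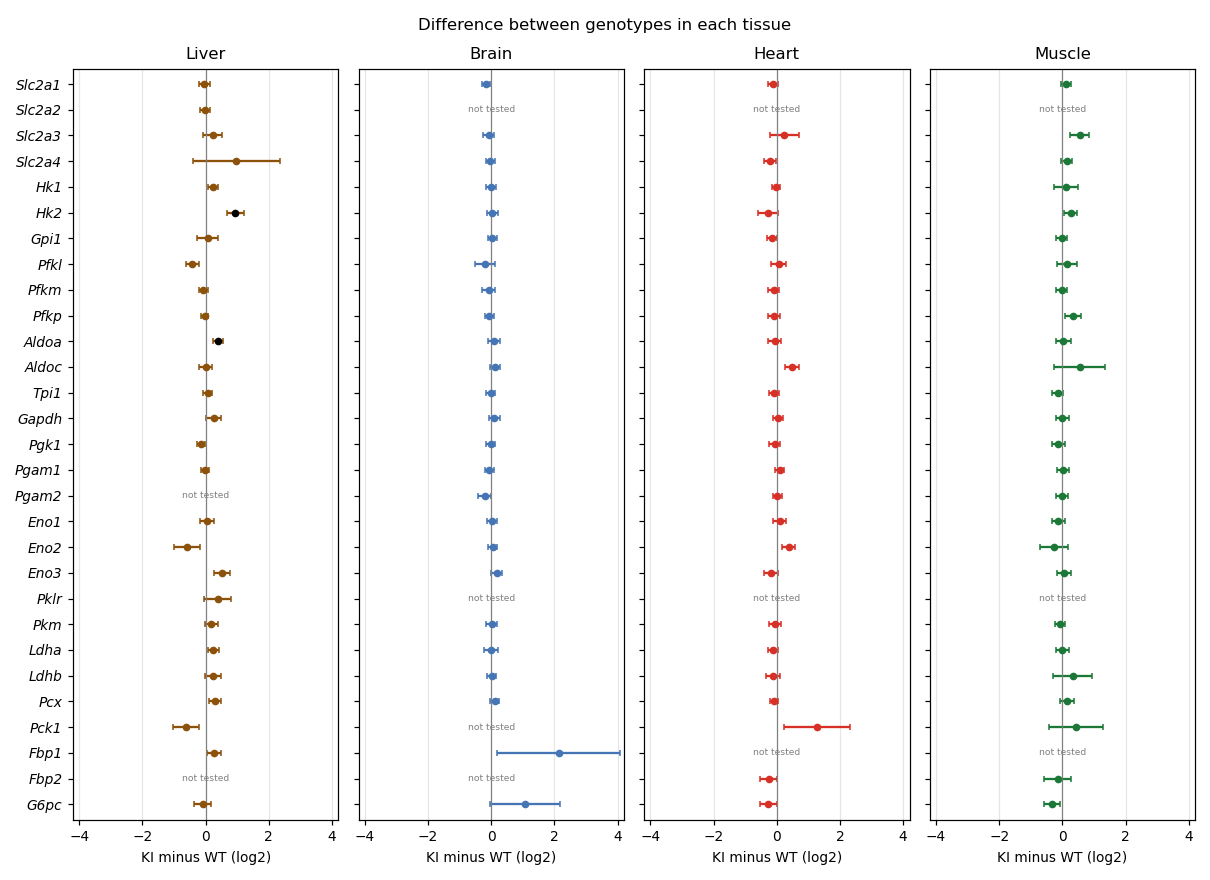
KI minus WT difference of each gene (horizontal axis, log2) in each tissue, with bars for the limma SE and black points for an unadjusted p under 0.05. The 2 black points are Hk2 (0.94) and Aldoa (0.39) in liver, and the widest bars are those of Fbp1, G6pc, Pck1 and Slc2a4 in tissues where 1 or 2 arrays stood apart.

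Hk2 in liver was at -1.40, -1.95 and -1.38 in KI mice A, B and C and at -2.04, -2.95 and -2.57 in WT mice D, E and F. All KI values lay above all WT values, and the highest came from KI mouse C, whose liver carried fast fibre transcripts. The difference was 0.94 ± 0.273 (SE, log2, adjusted p = 0.379, limma), which did not pass the adjustment. Without the liver of KI mouse C it was 0.84 (adjusted p = 0.526, limma). Without the livers of KI mouse A and WT mouse E it was 0.64 and its unadjusted p was over 0.05. Aldoa in liver was at 6.20, 5.98 and 6.17 in KI and 5.59, 5.95 and 5.65 in WT, a difference of 0.39 ± 0.145 (adjusted p = 0.403). KI mouse B and WT mouse E nearly met. Leaving out KI mouse A or C or WT mouse D or F gave 0.32 to 0.37, with an unadjusted p over 0.05 each time. A list of 5 macrophage genes (Adgre1, Cd68, Csf1r, Clec4f and C1qa), all well above background in every liver, separated the genotypes in the same way. Its mean was 3.39, 3.23 and 3.45 in KI mice A, B and C and 2.93, 2.70 and 2.62 in WT mice D, E and F. No other of the cell type lists separated the genotypes in any tissue. Of all single genes, 19.8% separated the genotypes in liver, so nothing particular is read from this list. The part of macrophage or fast fibre transcripts in the levels of Hk2 and Aldoa was not tested.

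Eno3 in liver was at 1.07, 0.87 and 1.86 in KI and 0.74, 0.82 and 0.71 in WT (difference 0.51, adjusted p = 0.469, limma), and its highest value came from KI mouse C, whose liver carried fast fibre transcripts. Without that liver the difference was 0.21. Pgk1 was at 6.45, 6.73 and 6.68 in KI and 6.77, 6.80 and 6.75 in WT (difference -0.15, adjusted p = 0.603). The other 7 genes named in liver overlapped between genotypes. Pklr was at 3.32, 2.42 and 2.68 in KI and 2.05, 3.33 and 1.89 in WT (difference 0.38 ± 0.425, SE). G6pc was at 6.32, 6.12 and 5.76 in KI and 6.57, 6.25 and 5.65 in WT (-0.09 ± 0.267). Pck1 was at 6.65, 8.06 and 8.13 in KI and 7.97, 8.55 and 8.15 in WT (-0.61 ± 0.413), and KI mouse A was below the other 5 livers. Fbp1 was at 9.39, 9.26 and 9.33 in KI and 8.72, 9.52 and 8.95 in WT (0.26 ± 0.214, and -0.03 with quantile normalization). Pcx was at 7.08, 7.26 and 7.42 in KI and 6.65, 7.22 and 7.01 in WT (0.30 ± 0.183). Slc2a2 was at 6.21, 6.20 and 6.54 in KI and 6.11, 6.47 and 6.43 in WT (-0.02 ± 0.162). For Aldoc both genotypes averaged 3.95, with 4.33, 3.83 and 3.69 in KI and 3.76, 4.16 and 3.92 in WT. None of these 7 had an unadjusted p under 0.05. Without the liver of KI mouse C, G6pc turned to 0.06, Pck1 went to -0.87 and Aldoc to 0.13.

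In muscle the genes of glucose uptake and commitment overlapped between genotypes. Slc2a4 was at 7.96, 7.88 and 7.75 in KI and 7.51, 7.93 and 7.71 in WT (difference 0.14 ± 0.175, SE, log2). Hk2 was at 6.46, 6.19 and 5.77 in KI and 5.84, 5.98 and 5.82 in WT (0.26 ± 0.211). Pfkm was at 9.52, 9.27 and 9.46 in KI and 9.30, 9.56 and 9.46 in WT (-0.03 ± 0.163). Gapdh, given as the reference gene, differed by 0.00 ± 0.201 in muscle, 0.03 ± 0.155 in heart, 0.10 ± 0.167 in brain and 0.25 ± 0.232 in liver, and its sign turned in liver (-0.01) and brain (-0.02) with quantile normalization. Its 7 probes gave -0.69 to 0.00 in muscle, -0.18 to 0.03 in heart, -0.07 to 0.10 in brain and -0.17 to 0.25 in liver, so the probe described here was at the upper end in each tissue. The smallest adjusted p of Gapdh was 0.64, in liver (limma).

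In heart Aldoc was at -2.52, -1.67 and -2.24 in KI and -2.64, -2.60 and -2.61 in WT, a difference of 0.47 ± 0.221 (SE, log2, adjusted p = 0.978, limma). Eno2 was at -1.36, -0.64 and -1.33 in KI and -1.52, -1.42 and -1.51 in WT (0.37 ± 0.213). In both genes KI mouse B was above the other 2 KI hearts, by more than these exceeded the WT hearts. Without the heart of KI mouse B the differences were 0.24 for Aldoc and 0.13 for Eno2.

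Among the livers, KI mouse A and WT mouse E stood apart together in lipogenic genes. They had the 2 highest levels for 8 of 9 lipogenic genes known to rise with feeding (Srebf1, Fasn, Acly, Acaca, Scd1, Elovl6, Pnpla3, Thrsp and Me1), with list means of 6.73 and 6.49 against 4.76 to 5.57 in the other 4. The same pair was highest for 6 of the 27 members (Slc2a4, Pklr, Gpi1, Aldoc, Gapdh and Fbp1) and for 8.68% of all 14074 genes compared. For Gapdh and Fbp1 its lead over the next liver was only 0.06. The 2 livers parted on Pck1, lowest in KI mouse A (6.65) and highest in WT mouse E (8.55). Their subtracted 75th percentiles were also the lowest, at signals of 528 and 468 against 587 to 1136 in the others. Slc2a4 was at 2.82 and 2.14 in the pair and at -1.90 to 0.14 in the others. Pklr, which the carbohydrate-responsive factor ChREBP is known to induce, was at 3.32 and 3.33 against 1.89 to 2.68. Gpi1 was at 7.31 and 7.24 against 6.26 to 6.82. A list of 8 fasting genes had this pair on top for 1 of 8, and its mean was 3.91 and 4.13 in the pair and 4.03 to 4.33 in the others. The pair holds 1 mouse of each genotype. When the mice had last eaten is not given in the sources used here, and the part of feeding in these levels was not tested.

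**Figure D3:**
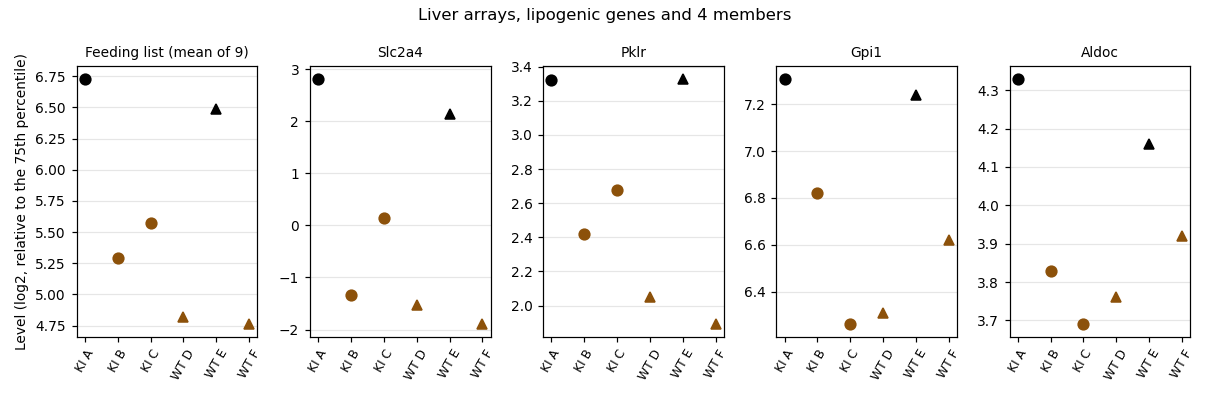
Levels in the 6 livers (vertical axes, log2 against each array's 75th percentile) of the mean of 9 lipogenic genes and of Slc2a4, Pklr, Gpi1 and Aldoc, with circles for KI and triangles for WT. KI mouse A and WT mouse E, in black, are the 2 highest points in each panel.

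In muscle 5 of 26 members (Hk1, Pfkl, Ldhb, Pgam1 and Pcx) had mice A and E lowest and B highest, as 8.67% of all 13019 genes did. The lists of slow fibre, red blood cell, macrophage and oligodendrocyte genes had the same mice lowest and highest. The mean of 6 slow fibre genes was 1.19, 7.99 and 4.17 in KI mice A, B and C and 5.60, 1.52 and 6.58 in WT mice D, E and F, while the fast fibre list varied only from 9.29 to 9.69. Ldhb was at 5.27, 7.48 and 6.62 in KI and 6.18, 5.29 and 6.93 in WT, so mice A and E were lowest and B highest on both measures. Hk1 was at 1.44, 2.86 and 1.96 in KI and 1.99, 1.58 and 2.34 in WT, with the same 2 mice lowest and the same mouse highest. Pfkl was at -1.07, 0.22 and -0.52 in KI and -0.58, -0.78 and -0.43 in WT, again lowest in A and E and highest in B. Between these extremes only Hk1 of the 3 followed the order of the slow fibre list. The mean of 4 red blood cell genes was 1.48, 4.74 and 1.71 in KI and 3.22, 1.22 and 2.45 in WT, and that of 5 macrophage genes was -1.65, -0.66 and -0.70 in KI and -0.94, -1.68 and -0.93 in WT. The muscle of KI mouse B also carried mammary transcripts. The part of these cell types in the levels was not tested. Each genotype spanned a wide range, and the SE of the Ldhb difference (0.32, or -0.19 without KI mouse B) was 0.623. Pck1 was lowest in the mice with the lowest white fat list. It was at 0.92 in KI mouse A and 0.98 in WT mouse F and at 2.81 to 3.74 in the other 4 mice, and the mean of 6 white fat genes was 2.36 and 1.85 in these 2 mice and 2.98 to 3.98 in the others. The brown fat list was also lowest in these 2 mice, at -1.23 and -0.70. How many of all genes had these 2 mice lowest was not counted, and the part of fat in the Pck1 levels was not tested. In bulk tissue fewer cells of a type and less RNA per cell cannot be told apart.

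**Figure D4:**
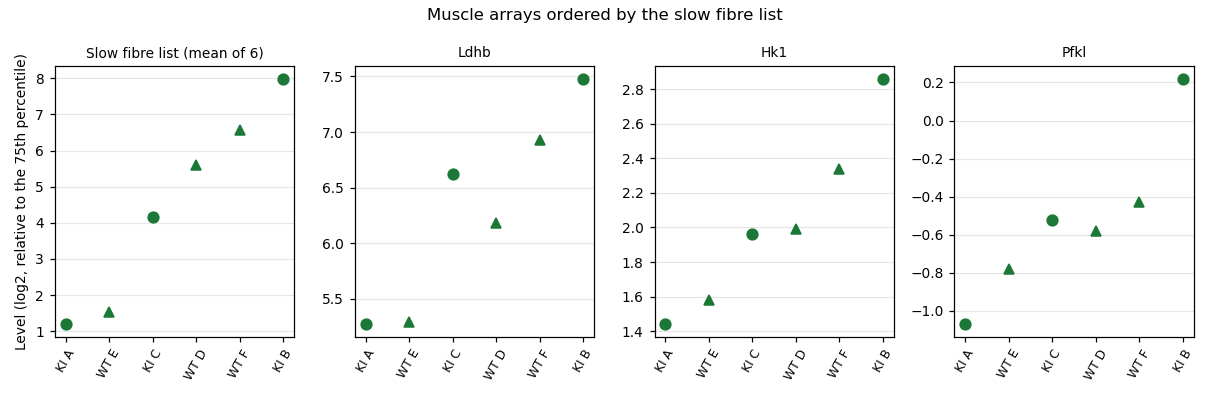
Levels in the 6 muscles (vertical axes, log2 against each array's 75th percentile) of the mean of 6 slow fibre genes and of Ldhb, Hk1 and Pfkl, with mice in order of the slow fibre mean, circles for KI and triangles for WT. Mice A and E are the 2 lowest and B the highest in each panel.

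The arrays that stood apart set several of the values above. In the brain of KI mouse C the hepatocyte list was at 3.34, against -3.78 to -1.99 in the other 5 brains. The members highest in liver were raised with it, except Pcx, at 3.85 (3.68 to 4.03 in the others). Fbp2, which no liver array measured above background, was also higher, at -4.59 (-7.72 to -6.67). Pck1 was at 1.85 (-7.68 to -4.31 in the others), G6pc at -0.73 (-5.29 to -4.30), Fbp1 at 4.24 (-3.95 to -1.80) and Pklr at -3.55 (-7.63 to -6.13). The neuron list was at 5.31, against 5.45 to 5.61, and 12 of 25 members were lowest in this brain, where 32.6% of all genes were. In the liver of KI mouse C the fast fibre list was at 1.43, against -5.35 to -4.36, and Pgam2 (-0.19), Eno3 (1.86) and Ldhb (1.27) were the highest of the 6 livers. Of the 27 members well above background in every liver, 8 were highest in this one, where 20.1% of all genes were. They also included Hk2 (-1.38), Slc2a1 (1.66), Slc2a2 (6.54) and Pcx (7.42). Gpi1 (6.26) and Aldoc (3.69) were the lowest of the 6 livers, and Pfkm, Aldoa and Ldha were not the highest. In the muscle of KI mouse B the mammary list was at -1.66, against -5.20 to -4.94, and Aldoc was at 1.44, against -1.65 to -0.13. Their part was not tested beyond the counts and differences given without these arrays.

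In the heart of KI mouse B, 18 of 26 members were the lowest of the 6 hearts, where 41.1% of all genes were. Low values in this heart included Hk2 at 4.25 (5.09 to 5.48 in the others), Slc2a4 at 6.50 (7.06 to 7.19), Pfkm at 6.89 (7.29 to 7.49), Eno3 at 7.68 (8.21 to 8.42) and Ldhb at 7.86 (8.38 to 8.56). Pck1 at 1.24 (-3.21 to -1.36), Slc2a3 at -0.16 (-1.84 to -0.68), Aldoc and Eno2 were highest in this heart. Its atrial transcripts Myl7 and Nppa were at 7.65 and 9.24, with Myl7 at 4.48 in WT mouse E and -3.04 to 0.41 in the other 4 hearts, and its white fat list was at 0.64, against -2.68 to -1.14. The neuron list was at -2.17, against -3.41 to -3.04, and the astrocyte list at -1.37, against -2.12 to -1.66. Every cell type list but the mammary one was highest in this heart. The part of these cell types in the levels was not tested. Without this heart 21 members still had 1 highest tissue, and all of the 127 tissue differences then called were among the 129.

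**Figure D5:**
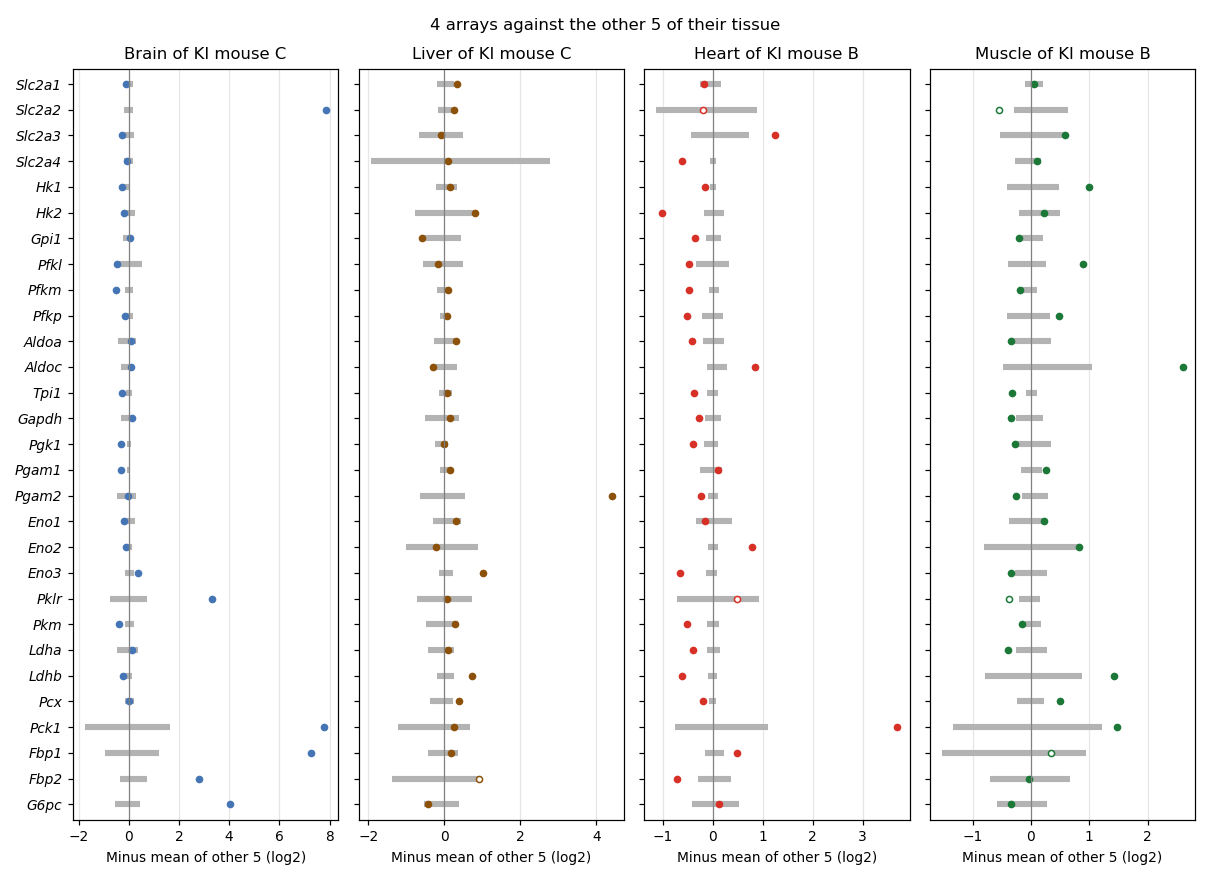
Level of each gene on 4 arrays minus the mean of the other 5 arrays of the tissue (horizontal axes, log2), with grey bars for the range of those 5 and open circles for values not well above background. Slc2a2, Pck1, Fbp1, G6pc and Pklr lie far right in the brain of KI mouse C, Pgam2 in the liver of KI mouse C, Pck1 in the heart and Aldoc in the muscle of KI mouse B.

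Other genes of sugar metabolism also gave 0 calls by genotype. Of 39 listed genes, among them the phosphofructo-2-kinases, pyruvate dehydrogenase and its kinases, glycogen enzymes and lactate transporters, all were measured and 0 were called in any tissue by limma. At an unadjusted p under 0.05 there were 2 of 39 in liver (11.7% of all genes), Hkdc1, a hexokinase-like enzyme (difference 0.47), and Pfkfb3, which makes the activator of phosphofructokinase (-0.50), and 1 of 36 in heart (1.6% of all genes), Hk3 (1.09, adjusted p = 0.978). Brain and muscle had 0 of 38 and 0 of 34. By tissue, 22 of the 39 had 1 highest tissue (41.8% of all genes), 10 in muscle (6.26%), 8 in liver (14.9%), 2 in heart (4.47%) and 2 in brain (16.2%). The glycogen phosphorylases also differed by tissue, with Pygl highest in liver, Pygm in muscle and Pygb in heart.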

How the data were processed

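RNA of 24 tissue samples was measured on 1 array each, with Cy3 as the dye per the labels, on 3 slides. Brain and liver RNA came from one extraction kit and heart and muscle RNA from another, so kit and tissue cannot be told apart in those comparisons. The authors extracted intensities using Agilent Feature Extraction (version 12.0.3.1 in the headers). The deposited intensity is the processed signal, already corrected for background and not normalized between arrays. The deposited score table held z-scores of the log signal within an array (33912 features, largest difference 0.005) and served as an alternative. Its column medians ran from -0.10 to 0.10.

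Controls and 121 to 347 outlier spots an array were dropped and replicate spots averaged, leaving 55681 probes, of which 50.9% could be named through RefSeq accessions. No spot was saturated. Values were log2 signal minus the 75th percentile of the array. R 4.3.3 and limma 3.58.1 (lmFit, eBayes, two-sided, Benjamini-Hochberg over all named genes tested) gave the tests. Genes were tested between genotypes where 1 genotype or both had the probe well above background in all 3 mice, and between tissues where all 6 arrays of some tissue did. Against groups with no such array, folds are bounds from the lowest level well above background on each array. The arrays' number limits the precision, and steps were tested on simulated data.

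Members, lists and motifs were chosen with earlier results of these data known. Named with values were all members by tissue, members with an unadjusted p under 0.05, and a fixed set (Gapdh, 7 genes in liver, 3 in muscle), with Aldoc added because a gene table published with the study lists it for liver. Cell type, feeding and pathway lists are given by array means or counts. Mouse numbers pair arrays across tissues, since they are the same animal. Correlations of the deviations of a mouse's tissues ran from -0.17 to 0.24 over 36 pairs, across genes. Livers lay on 1 slide and muscles on another, so slide and tissue cannot be told apart between them. The same holds for liver against heart and for brain against muscle, which shared no slide. The slide was not a block in the tests between tissues. Brain and heart arrays of both genotypes lay on 2 slides each, and in heart the slides followed age. Alternatives were other normalizations, background correction, probe summaries and filters, the slide and the mouse as blocks, and leaving out arrays.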

Additional observations from a re-analysis of the deposited data

Results flagged for a closer look

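Of 112 groups of the 6 arrays of a gene in 1 tissue, 19 had 1 array apart from the other 5 by Dixon's criterion, where chance gives about 1 in 20 groups. The same held for 10.2% of the 67869 groups over all genes, and the groups of a tissue share its arrays, so nothing particular to the members is read from the count. In the heart of KI mouse B these were Hk2 (4.25), Pfkm (6.89), Eno3 (7.68), Ldhb (7.86) and Slc2a4 (6.50), all low, and Eno2 (-0.64), high. In the brain of KI mouse C they were Pklr (-3.55), Slc2a2 (0.11), G6pc (-0.73), Pck1 (1.85), Fbp1 (4.24) and Fbp2 (-4.59), all high. In the liver of KI mouse C they were Pgam2 (-0.19) and Eno3 (1.86), both high. In the brain of WT mouse E, Gpi1 (6.65) and Aldoc (7.55) were low. In the liver of KI mouse A, Pgk1 (6.45) and Pck1 (6.65) were low, and in the liver of WT mouse F, Pkm (0.76) was low.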

How the results depend on the processing

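No member was called between genotypes under any alternative, and the smallest adjusted p among them was 0.345 in liver, 0.621 in heart, 0.868 in muscle and 0.999 in brain (limma). Unadjusted counts reached 5 in liver, with 1 as the lowest, 1 in heart and muscle and 0 in brain. Members with 1 highest tissue numbered 15 with quantile normalization, 21 with normexp, 22 with the mean of all probes and 23 with the score table, and 20 to 22 when 1 mouse or array was left out. Called tissue differences ran from 112 to 134. Adding the mouse as replicate block left the counts at 21 and 129, and the consensus correlation was -0.00204. With the slide as a block, or slide 2 alone, brain and heart gave 0 calls. Hk2 in liver ran from 0.73 to 1.18 and Aldoa from 0.32 to 0.50 when 1 array was left out. The fits without the livers of KI mouse A and WT mouse E, without the heart of KI mouse B and on slide 2 alone, and single genes without the array that stood apart, were chosen after seeing the data. Levels below background are bounds only, and 3 mice per genotype limit what a genotype test can show.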
